A study of Ovis aries with 30 samples.

Results

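Enzymes of detoxification and antioxidant defence, GSTA1, ALDH1A1, UGT1A9 and SOD2, were followed in the epicardial adipose tissue (EAT) of sheep. They are 4 of the 1027 gene names carried by the array, and 9 of its 15008 probes report them. Probes were taken by the gene name in the scanner files or by the gene a named record belongs to in the RefSeq gene table (assembly ARS-UI_Ramb_v3.0). EAT is the fat depot lying directly on the heart. It was collected from untreated term fetuses (Control fetuses, n = 8), from term fetuses of ewes given 1 mg/kg/day cortisol (CORT fetuses, n = 6), from untreated naturally born lambs at 2 weeks of age (Control lambs, n = 7), and from lambs of the same age whose ewes had received 0.5 mg/kg/day (CORT lambs, n = 9). Cortisol was given to the ewe from gestational day 115 and no fetus or lamb was itself treated, so every CORT animal was exposed through its mother. The dose differed between the ages, and CORT lambs had been without infusion since birth. Per the study's methods a pair of twins was born in each group of lamb ewes. The methods give 9 lambs from 8 CORT ewes, as many lambs as were arrayed, so both CORT twins are among the CORT lambs. The labels do not identify the twins, so animals were treated as independent.

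The choice of these genes rested on earlier results of the same arrays. GSTA1 was picked for its difference between Control lambs and Control fetuses. UGT1A9 and SOD2 were picked for their values in CORT lambs compared to Control lambs, and ALDH1A1 for these and for the contrast between its cortisol differences at the 2 ages. Those values are given below as descriptions, without a test, and the rule had no numeric threshold. ALDH1A1 with age is a description too, because both of its groups entered the choice. The contrast between the cortisol differences of GSTA1 at the 2 ages is likewise a description, because both Control groups enter it. The remaining comparisons were tested, though some share a group with the choice.

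GSTA1 belongs to the alpha class of glutathione S-transferases, which join glutathione to reactive electrophiles, lipid peroxidation products among them. ALDH1A1 is a cytosolic aldehyde dehydrogenase that oxidises retinaldehyde to retinoic acid as well as other aldehydes, and it is known in fat for its place in retinoid metabolism. UGT1A9 is a UDP-glucuronosyltransferase of the endoplasmic reticulum that attaches glucuronic acid to drugs, phenols and other lipophilic compounds. SOD2 is the manganese superoxide dismutase of the mitochondrial matrix, where it turns superoxide made by respiration into hydrogen peroxide.

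The probes are 60 bases long, and their sequences decide what each value stands for. GSTA1 is the case that matters most, because its 4 probes fall into 2 pairs designed on different transcripts. The file names probes A_70_P016351 and A_70_P016352 GSTA1-1, the usual name of the enzyme's dimer, and names A_70_P016656 and A_70_P016657 GSTA1. The stretch that both probes of a pair share is printed in capitals.
GSTA1-1 pair: TCTTCTGAAGTTTTC
GSTA1 pair: GGGGCTGTCTGGGACAATTTGAATTTTCTA
Between the pairs the longest run of identical bases was 8. The alpha class is a multigene family, so whether both pairs report 1 gene was not settled by these sequences.

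SOD2 was read by a pair of probes that overlap by 30 bases, printed in capitals, so that they are largely 2 readings of 1 stretch of the transcript.
A_70_P067987: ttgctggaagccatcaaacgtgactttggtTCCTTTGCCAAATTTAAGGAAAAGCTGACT
A_70_P067986: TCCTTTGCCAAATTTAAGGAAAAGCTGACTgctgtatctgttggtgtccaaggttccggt
The UGT1A9 probes A_70_P030377 and A_70_P030376 begin at bases 2161 and 2221 of their record, and ALDH1A1 has the single probe A_70_P030026, which begins at base 1998. The first 30 bases of each are shown to identify the stretch measured.
A_70_P030377: ttagtggggaaagaatgatgtatgaaattg
A_70_P030376: gcttgtaccaaacagatctgaatttgacag
A_70_P030026: gtctgcttgtcaaatgaagtaatgcctgaa
In the gene table UGT1A1, UGT1A3, UGT1A4, UGT1A6 and UGT1A9 lie over one another and share 1 end, as UGT1A genes use the same last exons. The values called UGT1A9 can therefore hold other UGT1A transcripts. The gene name of these probes in the file is SHEUGT1A07, and that of the SOD2 probes is LOC780457. The names UGT1A9 and SOD2 were assigned here. Apart from the partner probe of the same file name, none of the 9 probes shared a run of 20 bases with any other probe of the array.

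All 9 probes were well above background on all 30 arrays. Values are normalized intensities on the log2 scale, on which a difference of 1 is a doubling. Levels of different probes are not compared, because probes differ in brightness. The arrays measure bulk tissue, in which fewer cells of a type and less RNA per cell cannot be told apart. Fetuses were hybridised on slides 1 and 2 and lambs on slides 3 and 4, so slide and age cannot be told apart. Each slide held both Control and CORT animals. The fat markers PLIN1, FABP4 and LEP were well above background on every array. TNNC2, a troponin of fast skeletal muscle, reached 17.20 in Control fetus 2 against a median of 7.24 in Control fetuses. MB, the myoglobin gene, ran from 9.61 to 16.89 in Control lambs, with the highest value in Control lamb 6.

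ALDH1A1 was 2.44-fold higher in Control lambs compared to Control fetuses, and GSTA1 was higher by a margin that depended on the probe pair, while UGT1A9 and SOD2, the 2 members tested here, did not pass. In the fit across all probes 5351 of 13096 (40.9%) passed an adjusted p of 0.05 in this comparison, which is the background for these 2.

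**Figure D1:**
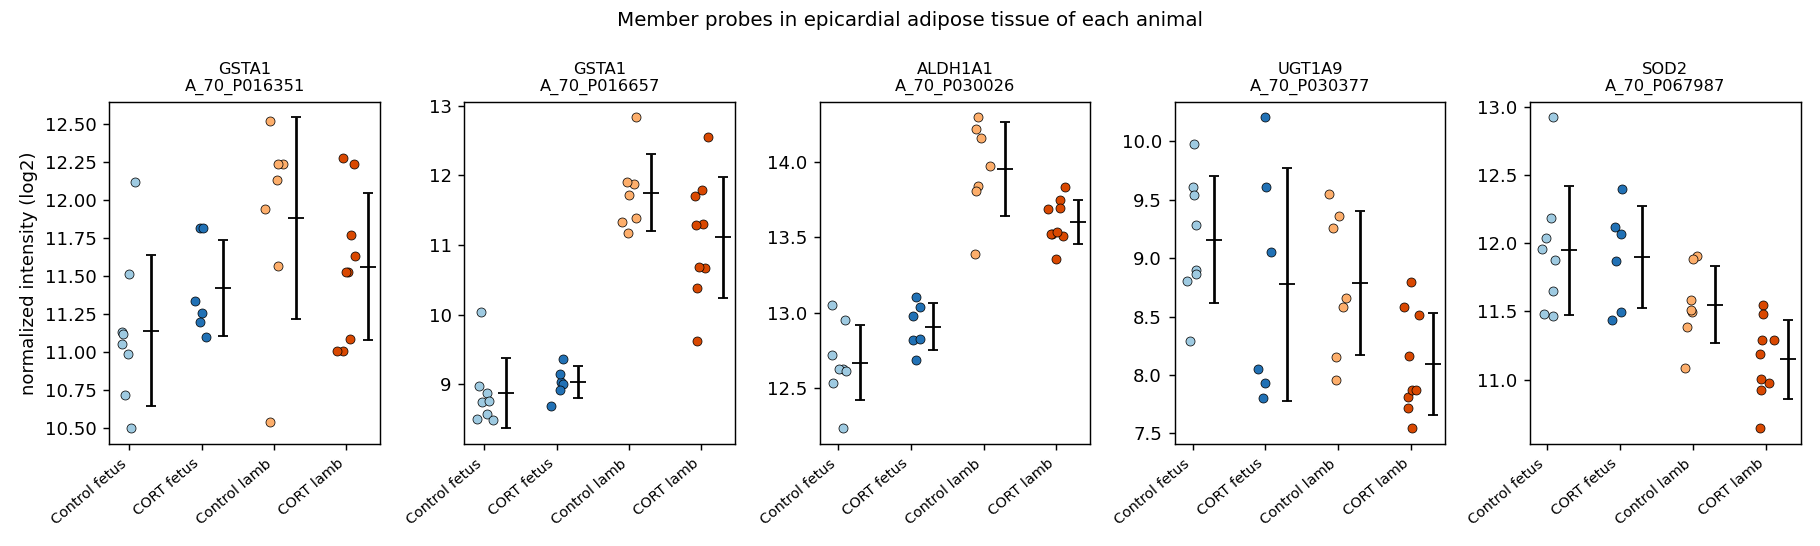
Normalized log2 intensity (vertical axis, a separate scale in each panel) of 5 member probes in each animal of the 4 groups. Points are animals and bars are the mean ± SD. Control lambs lie wholly above Control fetuses for GSTA1 A_70_P016657 and ALDH1A1, and the groups overlap for the other 3 probes. The share of all probes with such a separation is not given here.

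ALDH1A1 lay between 12.23 and 13.05 in Control fetuses (median 12.62) and between 13.39 and 14.29 in Control lambs (median 13.97). All 7 Control lambs stood above all 8 Control fetuses. The share of all probes that separate groups of the 2 ages in this way is not given here, and 40.9% of tested probes passed with age. The difference between the means was 1.29 (SE 0.14, 95% interval 1.00 to 1.57). Both groups enter contrasts on which ALDH1A1 was chosen, the Control lambs through the lamb contrast and the Control fetuses through the contrast between the ages, so no p is given. CORT lambs, at 13.36 to 13.83, likewise lay above every CORT fetus (12.69 to 13.10).

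Markers of fibroblasts moved in the same direction. Of the 5 genes of that list 3 had a probe (COL1A2, COL3A1 and DCN), and all 3 were higher in Control lambs, by 1.55 (SE 0.20), 1.38 (SE 0.20) and 1.09 (SE 0.11), with limma adjusted p-values of 1.09e-05, 4.46e-05 and 1.82e-06. Their summed level on the log2 scale ran from 14.61 to 15.43 in Control fetuses and from 16.02 to 16.51 in Control lambs. The summed level of the adipocyte markers overlapped between these groups (12.20 to 14.28 and 12.21 to 14.91), but LEP, the leptin gene, was higher in Control lambs by 0.55 (SE 0.15, limma adjusted p = 0.00719). Single genes of other lists were higher too, with LTF of the neutrophil list at 1.64 (SE 0.20, limma adjusted p = 9.41e-06), APOA1 of the hepatocyte list at 1.57 (SE 0.24, limma adjusted p = 7.87e-05) and CD14 of the macrophage list at 0.28 (SE 0.07, limma adjusted p = 0.00525). The neutrophil genes BAC5, CATHL1B and CATHL3 went the other way, from -2.38 to -1.98. The other hepatocyte genes did not pass, with ALB at 2.48 (SE 1.28), TTR at 0.22 (SE 0.18) and SERPINA1 at -0.01 (SE 0.16). ALB varied widely, from 6.97 to 13.72 in Control fetuses and from 7.45 to 14.37 in Control lambs. LYZ of the macrophage list did not pass either (0.25, SE 0.21). UCP1, the uncoupling protein of brown fat, was lower by a log2 difference of -4.19 (SE 0.35, limma adjusted p = 1.67e-07). The part of these cell types in the values of ALDH1A1 and GSTA1 was not tested.

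GSTA1 gave 2 answers. The GSTA1-1 probe A_70_P016351, which has the highest mean of the 4 and stands for the gene here, ran from 10.50 to 12.12 in Control fetuses (median 11.09) and from 10.54 to 12.52 in Control lambs (median 12.13). These groups overlapped, with 6 of 7 Control lambs above the fetal mean, and the means differed by 0.74 (SE 0.27), or 1.67-fold. A_70_P016352 gave 0.73 (SE 0.23).

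The pair named GSTA1 moved much further. A_70_P016657 ran from 8.49 to 10.04 in Control fetuses (median 8.75) and from 11.18 to 12.84 in Control lambs (median 11.72), a difference of 2.88 (SE 0.25), or 7.37-fold. A_70_P016656 ran from 6.62 to 8.28 and from 9.23 to 11.16, a difference of 2.98 (SE 0.27), or 7.88-fold. All Control lambs stood above all Control fetuses on both probes of this pair. As for ALDH1A1, the share of all probes with this separation is not given here. GSTA1 was chosen on this comparison, so none of these differences was tested.

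**Figure D2:**
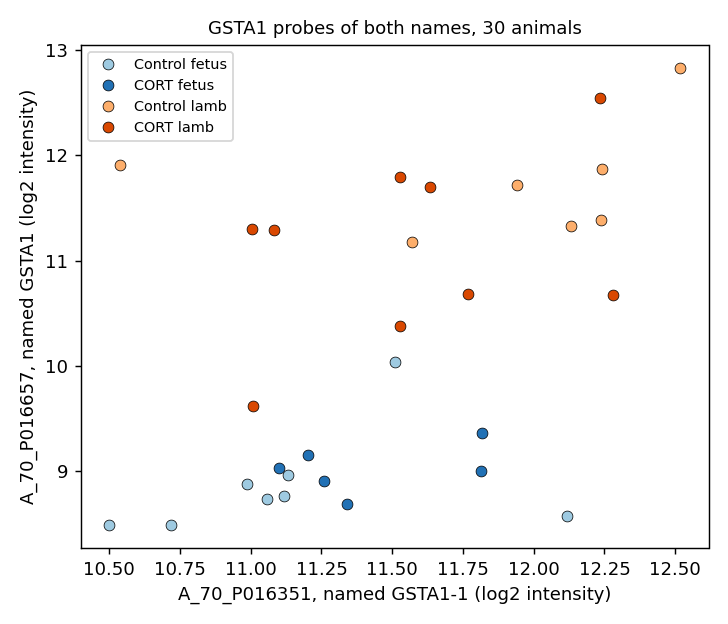
Log2 intensity of A_70_P016657, named GSTA1 (vertical axis), against A_70_P016351, named GSTA1-1 (horizontal axis), in the 30 animals, coloured by group. All fetuses but Control fetus 7 (10.04) lie under 9.5 on the vertical axis, whereas both ages span much of the horizontal axis.

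The pairs also differed between animals of 1 group. Over the 30 arrays, the deviations from the group mean correlated at r = 0.963 within the GSTA1-1 pair and at r = 0.972 within the GSTA1 pair, but at only 0.294 to 0.375 between the pairs. Control lamb 6 had the lowest GSTA1-1 value of its group (10.54) with a GSTA1 value of 11.91, above the median. This animal also had the highest MB of its group (16.89, median 14.46) and the lowest FABP4 (11.82, median 13.89) and PLIN1. It had neither the lowest LEP nor the highest TNNC2. The part of tissue make-up in its values was not tested. Control fetus 3 had the highest GSTA1-1 value of its group (12.12) with a GSTA1 value of 8.58, under the median. These correlations are a description over arrays that share the 4 groups.

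UGT1A9 was spread widely at every age. A_70_P030377 ran from 8.29 to 9.98 in Control fetuses (median 9.09) and from 7.96 to 9.55 in Control lambs (median 8.66). The difference between Control lambs and Control fetuses was -0.37 (SE 0.27, 95% interval -0.95 to 0.21, limma adjusted p = 0.305). The exact permutation p was 0.238 and 0.419 after adjustment over the 6 member tests. A_70_P030376 gave -0.16 (SE 0.31).

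SOD2 ran from 11.47 to 12.92 in Control fetuses (median 11.92) and from 11.08 to 11.91 in Control lambs (median 11.51) on A_70_P067987. All 7 Control lambs were below the fetal mean, although the groups overlapped. The difference was -0.40 (SE 0.19, limma adjusted p = 0.107), with an exact permutation p of 0.0646, or 0.388 adjusted. On A_70_P067986, which shares 30 of its bases, it was -0.15 (SE 0.20, limma adjusted p = 0.591). The Control lambs also enter the contrast on which UGT1A9 and SOD2 were chosen.

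**Figure D3:**
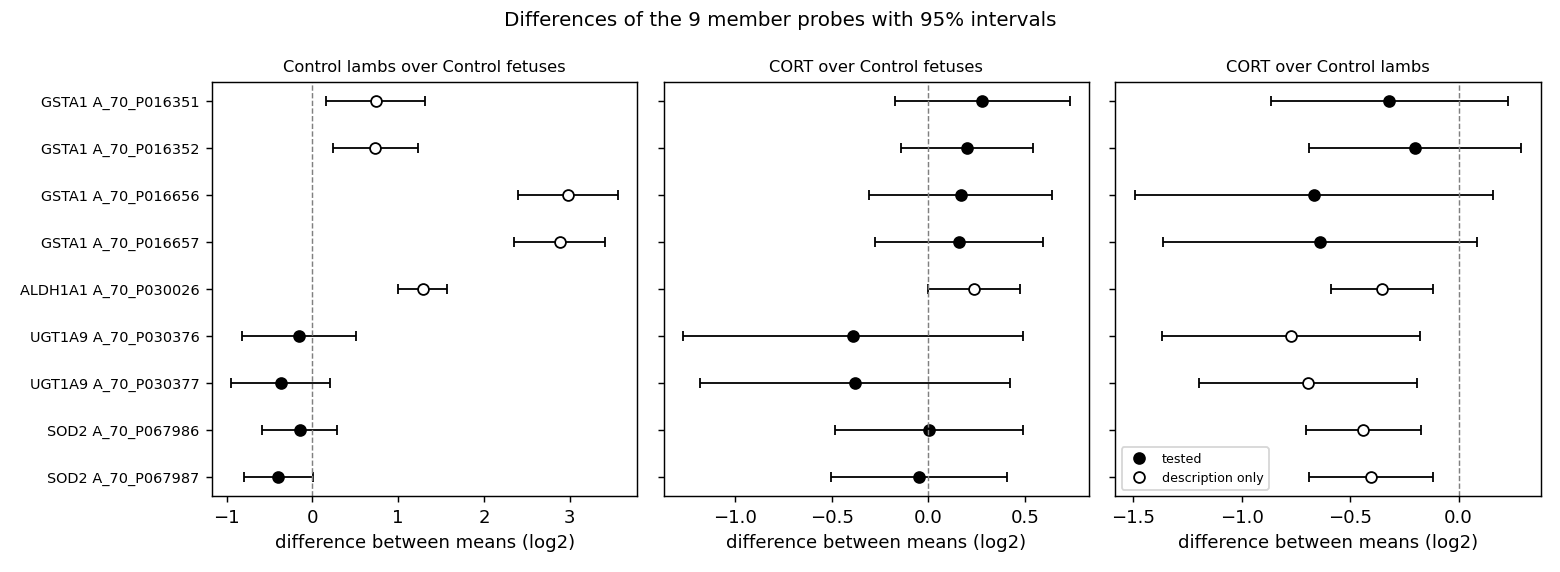
Difference between group means on the log2 scale (horizontal axis) for the 9 member probes in 3 comparisons, with 95% intervals. Filled points were tested and open points are descriptions of values that the choice of the gene rested on. With age the GSTA1 pair lies near 3 and the GSTA1-1 pair near 0.7, and all tested intervals under cortisol include 0.

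In CORT fetuses compared to Control fetuses no probe of 13096 passed an adjusted p of 0.05 with limma, and 308 (2.35%) had an unadjusted p under 0.05. None of the members tested was among them. GSTA1 on A_70_P016351 ran from 11.10 to 11.82 in CORT fetuses (median 11.30), and 5 of 6 were above the Control mean. The difference of 0.28 (SE 0.21, 95% interval -0.17 to 0.73) had an exact permutation p of 0.253. The pair named GSTA1 gave 0.17 (SE 0.22) and 0.16 (SE 0.20). The Control fetuses also enter the comparison on which GSTA1 was chosen, so its test here is not independent of the choice.

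UGT1A9 had its widest spread in CORT fetuses, from 7.81 to 10.21 (median 8.55). CORT fetuses 1, 2 and 6 lay between 7.81 and 8.05, and the other 3 lay between 9.05 and 10.21. The 3 low animals were all below the lowest Control fetus (8.29), and the highest was above the highest Control fetus (9.98). The difference between the means was -0.38 (SE 0.38, 95% interval -1.18 to 0.42), with an exact permutation p of 0.367. Low and high animals were found on both slides.

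SOD2 differed by -0.05 (SE 0.21, 95% interval -0.51 to 0.41, exact permutation p = 0.847) between CORT and Control fetuses, with CORT fetuses at 11.44 to 12.40. ALDH1A1 ran from 12.69 to 13.10 in CORT fetuses (median 12.90), and all 6 were above the Control mean of 12.67. Its difference of 0.24 (SE 0.11), or 1.18-fold, entered the choice of the gene and is a description.

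All 4 enzymes had lower means in CORT lambs than in Control lambs. Across the array no probe passed an adjusted p of 0.05 with limma, and 465 (3.55%) had an unadjusted p under 0.05. For ALDH1A1, UGT1A9 and SOD2 this is the contrast that chose them. GSTA1 was chosen on a comparison that the Control lambs also enter, so its lower mean is not independent of the choice.

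ALDH1A1 ran from 13.36 to 13.83 in CORT lambs (median 13.53), and all 9 were below the Control lamb mean of 13.95. The groups still overlapped, because Control lamb 1 (13.39) lay near the lowest CORT lamb. The difference was -0.35 (SE 0.11), a change of -21.8% in level. The SD was 0.15 in CORT lambs and 0.31 in Control lambs. Within slide 3 the difference was -0.46 and within slide 4 it was -0.24.

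SOD2 ran from 10.64 to 11.55 in CORT lambs (median 11.19), and all 9 were below the Control mean of 11.55. The difference was -0.40 (SE 0.14), a change of -24.3% in level, and the other probe gave -0.44 (SE 0.13). It was -0.27 within slide 3 and -0.53 within slide 4.

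UGT1A9 ran from 7.54 to 8.79 in CORT lambs (median 7.87), and 8 of 9 were below the Control mean of 8.79. The difference was -0.69 (SE 0.24), a change of -38.2% in level, and -0.77 (SE 0.28) on A_70_P030376. It was unevenly divided between the slides, at -1.07 within slide 3 (4 CORT and 4 Control lambs) and -0.18 within slide 4 (5 CORT and 3 Control lambs). The CORT means of the slides were close, 8.12 and 8.08, and the Control means were 9.19 and 8.26.

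**Figure D4:**
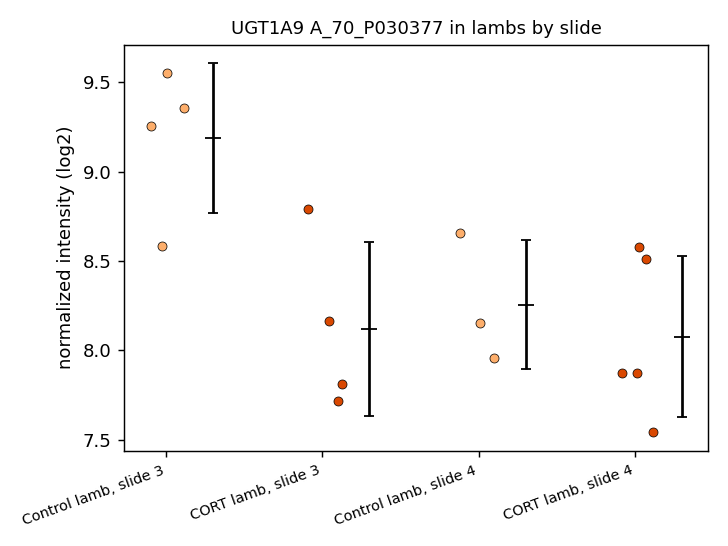
Normalized log2 intensity of UGT1A9 A_70_P030377 (vertical axis) in the 16 lambs, split by group and slide. Points are animals and bars are the mean ± SD, and the Control lambs of slide 3 have the highest mean (9.19), with 3 of the 4 (9.26 to 9.55) above every other lamb and the remaining one at 8.58.

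GSTA1 was tested in the lambs and did not pass. The Control lambs also enter the comparison on which it was chosen, so this test is not independent of the choice. A_70_P016351 ran from 11.01 to 12.28 in CORT lambs (median 11.53), with 7 of 9 below the Control mean, and the difference was -0.32 (SE 0.26, 95% interval -0.86 to 0.23, exact permutation p = 0.279). It was -0.54 without Control lamb 6 and -0.21 without Control lamb 3. A_70_P016657 ran from 9.62 to 12.55 (median 11.29) and differed by -0.64 (SE 0.34, 95% interval -1.36 to 0.08, exact permutation p = 0.115). CORT lamb 3 was the lowest and CORT lamb 4 the highest on this probe. No probe of the array passed the adjusted threshold in this comparison, so that no marker gene passed tells nothing of cell make-up. LTF differed by -0.90 (SE 0.18), while the other neutrophil genes BAC5, CATHL1B and CATHL3 were higher, by 0.19 to 0.33. The endothelial genes PECAM1, KDR and FLT1 differed by 0.35 (SE 0.16), 0.33 (SE 0.16) and 0.16 (SE 0.07). The part of these cell types in the member values was not tested.

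The cortisol difference in lambs less that in fetuses was -0.60 for GSTA1 (SE 0.36) on A_70_P016351. Both Control groups on which GSTA1 was chosen enter this contrast, so no p is given. The same difference was -0.59 for ALDH1A1, -0.31 for UGT1A9 and -0.35 for SOD2, and all 4 values are descriptions. The contrast joins different doses and ages, and no probe passed an adjusted p of 0.05 with limma (274, or 2.09%, at an unadjusted p under 0.05).

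The members varied more between animals of 1 group than most probes did. The within-group SD was 0.507 for GSTA1 A_70_P016351, 0.619 for A_70_P016657, 0.647 for UGT1A9, 0.363 for SOD2 and 0.226 for ALDH1A1, against a median of 0.182 over all tested probes. UGT1A9 stood at the 97.7th percentile of that spread and ALDH1A1 at the 68.4th.

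Animals high in 1 enzyme were not detectably high in another. Over 12 relations (6 pairs of genes in 14 fetuses and in 16 lambs), the largest Pearson r of the deviations from the group mean was that of GSTA1 with UGT1A9 in lambs. It was 0.470 (permutation p = 0.0894, adjusted 0.536; Spearman rho 0.371, permutation p = 0.166), and 0.422 without the 2 animals farthest from the median of GSTA1. The same pair gave 0.449 in fetuses (permutation p = 0.0776, adjusted 0.536; Spearman rho 0.279, permutation p = 0.346), and 0.336 without 2 animals. The lowest adjusted p over the 12 was 0.536. With A_70_P016657 standing for GSTA1, an alternative chosen after seeing the data, these r were 0.205 and 0.145. The largest r was then that of GSTA1 with ALDH1A1, 0.498 in fetuses (permutation p = 0.152, adjusted 0.915) and 0.397 in lambs (permutation p = 0.0814, adjusted 0.915), and these r were 0.206 and 0.318 without the 2 animals farthest from the median of GSTA1. Spearman's rho of this pair was 0.275 in fetuses (permutation p = 0.357) and 0.429 in lambs (permutation p = 0.0767).

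Among 902 named genes compared, those whose levels over the 30 arrays were most like ALDH1A1 were CA11, COL3A1 and BCL2 (r = 0.89, 0.89 and 0.88). For GSTA1 they were RPA1, ERP29 and RPN2 on A_70_P016351 (r = 0.68, 0.65 and 0.65). On A_70_P016657, looked at after the pairs were seen to differ, they were ALDH1A1, CA11 and COL1A2 (r = 0.90, 0.88 and 0.87). UGT1A9 was most like TM7SF2, HPCAL1 and CAPN2 (r = 0.67, 0.65 and 0.64), and SOD2 was most like HPCAL1, SIRT4 and SLC25A10 (r = 0.79, 0.75 and 0.75). The arrays share the difference between the ages.

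With the group means removed, the closest genes were RPL4, FTO and COL3A1 for ALDH1A1 (r = 0.54, 0.52 and 0.50), and RPA1, FGF2 and LPL for GSTA1 (0.65, 0.61 and 0.60). On A_70_P016657 they were CRY1, AKR1C3 and MLN (0.51, 0.47 and 0.46). For UGT1A9 they were CIB1, CAPN2 and PSPH (0.63, 0.62 and 0.58), and for SOD2 they were SFTPC, LOC443398 and SLC25A17 (0.65, 0.62 and 0.60). These values are a description, with no test.

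Other genes of detoxification, antioxidant defence and retinoid metabolism were taken from a list of 205, of which 25 had a named probe and 23 were bright enough to test. No retinoid gene was among the 23. In Control lambs compared to Control fetuses, 6 were higher, 5 were lower and 12 did not pass, so 47.8% were called beside 40.9% of all probes. Their median change was -0.06, beside -0.01 for all probes tested. These counts take 1 probe per gene. Other probes of PGD (-0.45, limma adjusted p = 0.0154) and ABCB1 (0.33, limma adjusted p = 0.0303) passed, although both genes are among the 12.

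Of 5 enzymes of the first phase of detoxification 2 were higher and 1 was lower. AKR1C3, an aldo-keto reductase, was higher by 1.34 (SE 0.25, limma adjusted p = 0.000491), although it was well above background in only 1 of 8 Control fetuses. Its size is therefore uncertain, and the alternatives put it between 1.17 and 4.34. PON2, an intracellular lactonase, was higher by 1.00 (SE 0.16, limma adjusted p = 9.2e-05). CYP3A24, a cytochrome P450, was lower (limma adjusted p = 0.00413), by at least 1.52-fold with the processing used here, since no Control lamb was well above background. That bound was set by the dimmest probe well above background on each array. The alternatives put its log2 difference between -3.29 and -0.53, so the bound does not hold for all of them. Of the 2 conjugating enzymes GSTM3, a mu-class glutathione transferase, was lower by a log2 difference of -0.80 (SE 0.19, limma adjusted p = 0.00318). SULT2A1, a sulfotransferase, was not well above background in either group.

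Of 12 antioxidant genes 3 were higher and 2 were lower. Thioredoxin (TXN) rose by 0.59 (SE 0.09, limma adjusted p = 0.000108), metallothionein MT3 by 0.48 (SE 0.10, limma adjusted p = 0.000814) and the copper chaperone ATOX1 by 0.29 (SE 0.09, limma adjusted p = 0.0183). Mitochondrial glutaredoxin GLRX2 fell by 1.38 (SE 0.37, limma adjusted p = 0.00684), and the NADPH-producing malic enzyme ME1 fell by 1.06 (SE 0.09, limma adjusted p = 2.47e-07). SOD1, the cytosolic counterpart of SOD2, differed by 0.54 (SE 0.26) and did not pass (limma adjusted p = 0.115). The aryl hydrocarbon receptor AHR, a regulator of detoxification genes, rose by 0.44 (SE 0.10, limma adjusted p = 0.00302). The exporter ABCG2 fell by 0.44 (SE 0.11, limma adjusted p = 0.00322).

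**Figure D5:**
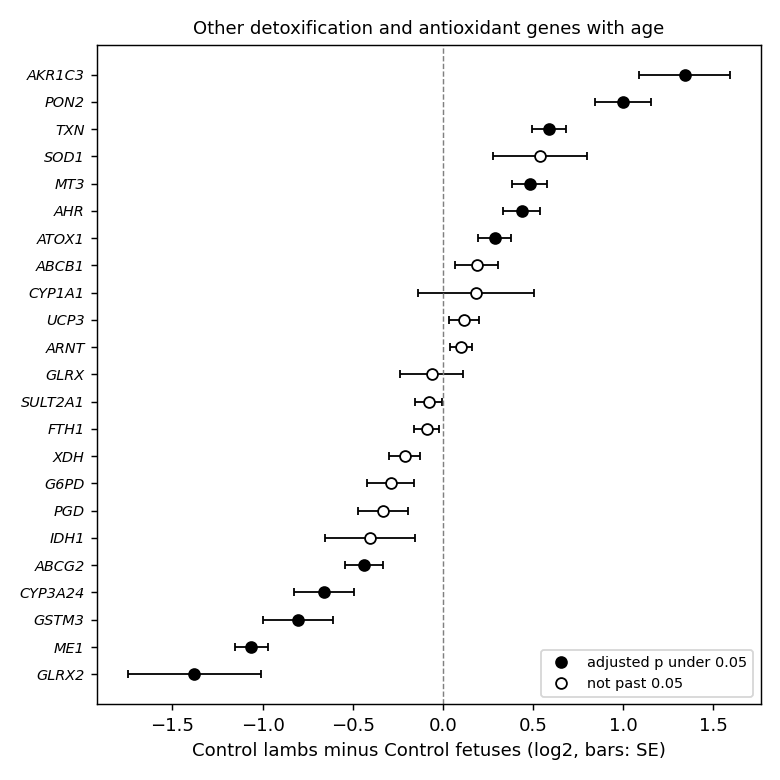
Difference between Control lambs and Control fetuses on the log2 scale (horizontal axis) for the 23 other genes tested, with bars of 1 SE. Filled points passed an adjusted p of 0.05, 6 above 0 and 5 below it. The positions of AKR1C3 and CYP3A24 rest on signals near background in 1 of the groups and are not exact.

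None of the 23 passed the adjusted threshold in either cortisol comparison. In the lambs 3 of the 23 had an unadjusted limma p under 0.05, beside 3.55% of all probes. SOD1 was 14.52 ± 0.48 (SD, n = 7) in Control lambs and 13.92 ± 0.32 (SD, n = 9) in CORT lambs, a difference of -0.60 (SE 0.18, limma unadjusted p = 0.00455, adjusted 1.00). GLRX, the cytosolic glutaredoxin, differed by 0.62 (SE 0.26, limma unadjusted p = 0.0275), and ME1 by -0.33 (SE 0.15, limma unadjusted p = 0.0355). The count takes 1 probe per gene. TXN gave -0.15 (SE 0.07, limma unadjusted p = 0.0524) on the probe standing for it and -0.26 (SE 0.08) on its other probe. In the fetuses none of the 23 had an unadjusted p under 0.05. In the contrast between the ages only ME1 did (-0.44, SE 0.19, limma unadjusted p = 0.0297).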

How the data were processed

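The arrays were 1-colour Agilent sheep arrays read with Agilent Feature Extraction 10.1.1.1, per the submitters' processing notes. The deposited scanner files give each spot's mean intensity and local background intensity, not normalized. A deposited matrix holds the authors' log2 values of the same arrays. Its lamb columns followed the scanner values (Spearman rho at least 0.9996), and its fetal columns did not (-0.008 to -0.004) and were not used.

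Intensities were background-corrected with limma 3.58.1 in R 4.3.3 (normexp, offset 50). Outlier spots were set to missing, control spots were left out, the 30 arrays were quantile normalized on the log2 scale, and spots of 1 probe were averaged. Median foreground intensity was 132 to 240.4 per array over a background of 34 to 46, and 70.4% to 83.5% of spots were well above background. The number of arrays limits the precision. Probes more than 10% brighter than the 95th percentile of 77 negative controls on at least 6 arrays were tested (13096 of 15008). The study's methods give a limit of 10% relative to negative controls, and the percentile and the number of arrays were set here. Gene names came from the files and the ARS-UI_Ramb_v3.0 gene table, and 1659 probes (11.1%) had one.

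Compared groups were fitted with lmFit and eBayes, two-sided, adjusted by Benjamini-Hochberg over all probes tested. Single members were tested by exact permutation, adjusted over 6 tests (ALDH1A1 with age, planned as a further test, was left as a description because both groups entered its choice), and relations between members with 100000 permutations within groups. On simulated data with 200 probes changed by 1 on the log2 scale, 97% were recovered for CORT over Control lambs (13030 probes). The simulated noise was normal and independent between probes. The member differences in lambs were smaller, from -0.69 to -0.32 on the probes standing for the genes. Recovery of changes of that size was not simulated. The probe with the highest mean over 30 arrays stood for a gene, and probes named GSTA1-1 were counted as GSTA1. Members and lists were chosen with earlier results of these data known. Listed genes are named where they passed an adjusted p of 0.05, or an unadjusted one in the cortisol comparisons, and the 3 genes most like each member are named. Each group of lamb ewes bore a pair of twins, per the study's methods, and whether fetuses shared a ewe is not given in the sources used here. The p-values treat all animals as independent, which does not hold for twins. Alternatives covered the background correction, normalization, filter, samples fitted, array weights, slide, replicate number, deposited values, other probes and each animal left out.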

Additional observations from a re-analysis of the deposited data

Results flagged for a closer look

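In Control fetuses 1 animal stood apart on both probes named GSTA1. Control fetus 7 had 8.28 on A_70_P016656, with the next animal at 6.99 (gap over range 0.778), and 10.04 on A_70_P016657, with the next at 8.97 (0.691). It was not the highest of its group on the GSTA1-1 probe A_70_P016351 (11.51). SOD2 on A_70_P067986 reached 12.83 in Control fetus 4, with the next animal at 11.86 (0.595). Of 36 sets of values searched 3 held such an animal, and chance gives about 1 in 20.

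ALDH1A1 moved in opposite directions under cortisol at the 2 ages: all 6 CORT fetuses were above the Control fetus mean and all 9 CORT lambs were below the Control lamb mean, a contrast of -0.592. That difference was not tested, because it entered the choice of the gene, and dose and age cannot be told apart in it.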

How the results depend on the processing

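The difference of GSTA1 with age was 0.74 on A_70_P016351 and 2.98 and 2.88 on A_70_P016656 and A_70_P016657. ALDH1A1 with age stayed between 1.22 and 1.48 under all 23 alternatives. Among the member differences only SOD2 in fetuses changed sign: from -0.05 it ranged from -0.15 to 0.091 as animals were left out, turning positive without Control fetus 4 (0.091), CORT fetus 5 (0.032) or CORT fetus 6 (0.044), and was 0.0033 on A_70_P067986. GSTA1 in lambs (-0.32) was -0.54 without Control lamb 6, -0.21 without Control lamb 3 and -0.17 with the replicate block. UGT1A9 in fetuses ranged from -0.67 (without CORT fetus 3) to -0.19 (without CORT fetus 6), and its cortisol contrast between the ages from -0.51 to -0.03 as animals were left out. Whether replicate numbers pair the animals was not settled. In lambs r of same-numbered deviations ran from -0.06 to 0.41, over 0.1 in 5 of 7 pairs. In fetuses it ran from -0.19 to 0.41, over 0.1 in 3 of 6 pairs. Between Control lambs and Control fetuses it ran from -0.23 to 0.24, over 0.1 in 1 of 7 pairs. With the replicate block 1 probe passed in fetuses against 0 without it, and no call of a tested member changed, and leaving out single fetuses gave 0 to 1. With age AKR1C3 ranged from 1.17 to 4.34 and CYP3A24 from -3.29 to -0.53, past the threshold throughout. The probes called with age were 4416 to 5875. Of all values recomputed 678 kept their direction and side of the threshold, 4 reversed and 4 moved. The number of animals and, for AKR1C3 and CYP3A24, signals near background limit precision.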
